A study of Mus musculus with 6 samples.

Results

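The genes described here build and run the DNA replication machinery: they mark origins, load and start the helicase, synthesise the new strands and supply the nucleotides. They were listed by name, and their Ensembl identifiers were matched to the deposited table of read counts. All 49 listed genes were found among its 41388 identifiers, and they were arranged in 12 subcomplexes. The study measured liver RNA of wild type mice and of mice lacking Atp7b, the copper transporter that exports copper from hepatocytes into bile and loads it onto ceruloplasmin. In human Wilson disease this gene is mutated and copper builds up in the liver.

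The 6 libraries came from mice of strain C57BLx129S6SvEv at 6 weeks of age, kept on a diet with 16 ppm copper. Wild type and Atp7b-/- each had 3 libraries, and animals of both sexes were labelled in each genotype. The labels call the knockout Atp7b-/- and do not say which part of the gene was altered; the wild type mice carried no other listed allele or treatment. Reads were 54 bases long from the GAIIx sequencer. A single paired-end library stood in each genotype, replicate 1 of wild type and replicate 3 of Atp7b-/-, and the single-end reads of the other 4 came from an earlier run. Nothing in the labels says in so many words that each library is a separate animal, so p-values measure the spread between these libraries.

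Totals ranged from 5919389 to 25973968 assigned counts per library, with the paired-end libraries deepest. The largest spread lay between the layouts. The leading principal component held 65% of the variance and separated paired-end from single-end libraries, and the next held 16.9% and separated the genotypes. Mitochondrial transcripts took 2.57% and 2.50% of counts in single-end wild type libraries and 4.15% and 4.09% in single-end Atp7b-/- libraries. With paired-end reads the shares were 7.74% in wild type and 8.14% in Atp7b-/-, so the share was higher in Atp7b-/- within each layout. Hepatocyte markers summed to 76480 to 100400 CPM (counts scaled to the TMM library size) in wild type and 50250 to 66900 in Atp7b-/-, and all 8 markers, Alb and Ttr among them, were read. All values by library are listed by replicate, 1 to 3. Atp7b itself stood at 25.3, 85.2 and 59.7 CPM in wild type and at 19.2, 13.8 and 13.3 in Atp7b-/-. It was lower in all 3 knockout libraries (log2 fold change -1.73, SE 0.30, adjusted p = 0.0200, edgeR quasi-likelihood).

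Sex-linked transcripts went against the labelled sex in 2 libraries. The library labelled female as wild type replicate 3 held the Y-linked gene Ddx3y at 28.0 CPM beside Xist at 17.4. The library labelled female as Atp7b-/- replicate 3 held Ddx3y at 126 CPM and Xist at 0.482. For comparison, wild type replicate 2, also labelled female, had Xist at 371 and Ddx3y at 0.340. The changes of replication genes are therefore also given without these libraries. With layout as a term, that fit compares wild type replicate 2 alone with the single-end Atp7b-/- libraries, so only sizes of change are given. Among the single-end libraries the wild type ones are labelled female and the Atp7b-/- ones male, so there genotype and labelled sex cannot be told apart.

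Replication starts at origins bound by the origin recognition complex, where Cdc6 and Cdt1 load the MCM2-7 ring during G1. In S phase the kinase Cdc7 with its activator Dbf4, together with cyclin-dependent kinases, recruits Cdc45 and the GINS complex and turns the ring into an active helicase. Polymerase alpha-primase lays primers, and polymerases epsilon and delta extend the leading and lagging strands on the PCNA clamp. Most hepatocytes in the adult liver are quiescent, although many can re-enter the cycle after injury, and in young mice they also become polyploid. Several of these genes are controlled by E2F factors at G1/S, and genes of G2 and M phase often carry a cell cycle homology region (CHR) with CCAAT boxes.

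Promoter windows of 4 members are shown, since they hold the different motif arrangements of the genes that moved most and, in Mcm5, an E2F arrangement in a gene that did not pass the test. They are RefSeq windows on GRCm38.p6, each 300 bases long on the strand of the gene, from 250 bases before the annotated start to 50 after it. Capitals mark matches on either strand to the E2F core (TTTNNCGC or GCGNNAAA), the CHR core (TTTGAA or TTCAAA) and the CCAAT box (CCAAT or ATTGG). Top2a, chr11:99024140-99024439, minus strand, holds 6 CCAAT boxes and 2 CHR cores; Dbf4, chr5:8422667-8422966, minus strand, holds a single CHR core. Gins3, chr8:95633309-95633608, plus strand, holds all 3 motifs, and Mcm5, chr8:75109259-75109558, plus strand, holds 2 overlapping E2F cores in 1 run of capitals.
Top2a: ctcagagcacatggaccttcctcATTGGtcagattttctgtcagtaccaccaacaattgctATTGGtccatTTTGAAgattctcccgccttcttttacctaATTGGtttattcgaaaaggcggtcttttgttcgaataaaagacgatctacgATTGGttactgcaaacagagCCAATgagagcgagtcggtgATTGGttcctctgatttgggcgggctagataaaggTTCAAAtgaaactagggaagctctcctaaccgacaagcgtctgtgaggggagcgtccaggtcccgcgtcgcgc
Dbf4: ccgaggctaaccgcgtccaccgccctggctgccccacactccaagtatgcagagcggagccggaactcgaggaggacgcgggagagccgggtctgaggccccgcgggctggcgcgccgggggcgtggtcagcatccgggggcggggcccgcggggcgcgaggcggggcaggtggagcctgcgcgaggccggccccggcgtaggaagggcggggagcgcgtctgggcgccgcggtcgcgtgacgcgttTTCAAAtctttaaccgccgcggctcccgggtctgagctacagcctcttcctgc
Gins3: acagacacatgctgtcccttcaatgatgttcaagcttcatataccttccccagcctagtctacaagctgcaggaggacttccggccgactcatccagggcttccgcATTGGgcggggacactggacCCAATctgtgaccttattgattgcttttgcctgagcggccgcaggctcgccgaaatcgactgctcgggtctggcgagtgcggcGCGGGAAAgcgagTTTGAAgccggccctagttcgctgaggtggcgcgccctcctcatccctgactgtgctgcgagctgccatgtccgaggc
Mcm5: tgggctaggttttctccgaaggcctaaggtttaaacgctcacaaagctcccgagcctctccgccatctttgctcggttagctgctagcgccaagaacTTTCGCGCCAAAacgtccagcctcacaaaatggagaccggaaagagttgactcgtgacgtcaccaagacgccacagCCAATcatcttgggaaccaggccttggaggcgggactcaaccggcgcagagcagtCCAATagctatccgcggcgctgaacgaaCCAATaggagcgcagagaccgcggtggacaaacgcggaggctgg

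Of the 49 genes, 44 had enough counts to be tested; 2 rose in Atp7b-/- and none fell. A gene was called when its adjusted p was under 0.05 after Benjamini-Hochberg adjustment over all 12988 genes tested in an edgeR quasi-likelihood fit with layout as a term. The genes that rose were Top2a and Dbf4. Over all genes tested, 2.49% were called, 1.9% as higher and 0.585% as lower, so 2 of 44 members (4.55%) is a small count beside a small background. Without adjustment 12 members had p under 0.05, which is 27.3% of those tested against 14.5% of all genes. Among these, 8 were higher in Atp7b-/- (Orc3, Cdc45, Gins3, Dbf4, Prim2, Rfc5, Rrm1 and Top2a; 7.8% of all genes) and 4 lower (Mcm4, Pold1, Pold2 and Rfc2; 6.74% of all genes). The 44 fold changes lay on both sides of 0, 19 positive and 25 negative, with a median log2 value of -0.03 beside -0.01 for all genes. The machinery as a whole thus showed no common direction.

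**Figure D1:**
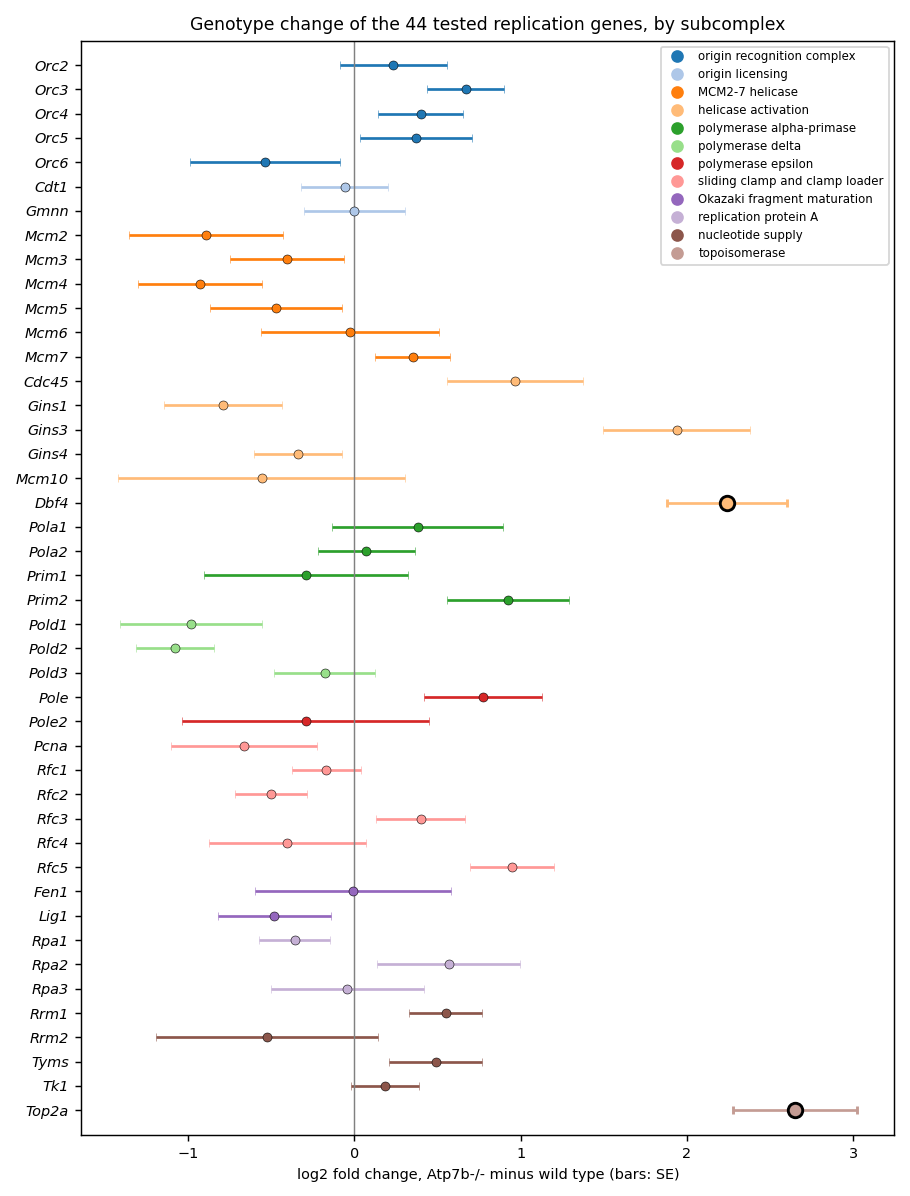
Fitted log2 fold change (Atp7b-/- minus wild type, horizontal axis) of the 44 tested genes, in rows coloured by subcomplex, with bars of 1 SE. Large points with heavy outlines mark Top2a (2.65) and Dbf4 (2.24), which passed the test; most other genes lie within 1 log2 unit of 0.

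Top2a encodes topoisomerase II alpha, which untangles sister DNA behind forks and at mitosis and is made mainly in S and G2 phase. It lies at chr11:98992943-99024189 on GRCm38. Its level was 2.97, 0.595 and 1.48 CPM in wild type, against 5.77, 8.14 and 15.7 in Atp7b-/-. Every Atp7b-/- library thus lay above every wild type library, and within each genotype the paired-end library was the highest. These levels rest on 65, 7 and 8 reads in wild type and 99, 58 and 456 in Atp7b-/-. The fitted change was 6.29-fold (log2 2.65, SE 0.37, adjusted p = 0.007 by edgeR). The call, though not the size of the change (log2 2.86 to 2.88), was lost among single-end libraries only (adjusted p = 0.0748 by edgeR). It was also lost without wild type replicate 1 (0.0587) or Atp7b-/- replicate 3 (0.0818), both paired-end. With layout as a term, a lone paired-end library does not bear on the genotype change, so all these settings make the same single-end comparison. Without both libraries whose sex-linked transcripts went against their labels, the log2 change was 3.51, with a single wild type library left in the comparison.

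Dbf4 encodes the activating subunit of the Cdc7 kinase, which phosphorylates the MCM ring to fire an origin. The gene lies at chr5:8396973-8422716. In wild type it was read at 4.66, 1.19 and 0.741 CPM, from 102, 14 and 4 reads, and in Atp7b-/- at 6.12, 7.86 and 14.1 CPM, from 105, 56 and 410 reads. The genotypes did not overlap, but the paired-end wild type library came close to the lowest Atp7b-/- library. The change was 4.73-fold (log2 2.24, SE 0.36, adjusted p = 0.0128 by edgeR). Dbf4 remained called among single-end libraries only (adjusted p = 0.0469 by edgeR), where 1.03% of all genes were called. Leaving out either paired-end library makes the same comparison, since layout is a term. Without wild type replicate 1 Dbf4 was called (adjusted p = 0.0352). Without Atp7b-/- replicate 3 the call was lost on a log2 change of 2.77 (adjusted p = 0.0511). Without both libraries whose sex-linked transcripts went against their labels, the log2 change was 2.53, with a single wild type library left in the comparison. Its kinase partner Cdc7 was too low to test, between 0 and 0.792 CPM in every library.

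Markers of other cell types were read beside these genes. Erythroid precursor markers, whose cells divide, summed to 40.6 to 200 CPM in wild type and 208 to 290 in Atp7b-/-, with 0 of 4 tested markers called; Slc4a1, Gata1 and Epb42, which help define that lineage, were below 1 CPM in every library. B and T lymphocyte markers summed to 6.86 to 15.5 CPM in wild type and 7.16 to 18.9 in Atp7b-/-, and 6 of the 8 were below 1 CPM throughout. Neutrophil and granulocyte precursor markers reached at most 2.42 CPM in wild type and 1.72 in Atp7b-/-, with Ly6g at 0 in every library. Cholangiocyte markers summed to 42.6 to 61.1 CPM against 59.9 to 97.7, with 0 of 6 tested called. The hepatocyte sum was lower in every Atp7b-/- library, but 0 of 8 hepatocyte markers were called, with a median log2 change of -0.27. Kupffer cell, sinusoidal endothelial and stellate cell sums overlapped between genotypes. The mitochondrial share of counts was also higher in Atp7b-/- within each layout, as given above. The part of these differences in the rise of Top2a and Dbf4 was not tested. In whole liver RNA a change in the number of cells of a type and a change in RNA per cell cannot be told apart.

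**Figure D2:**
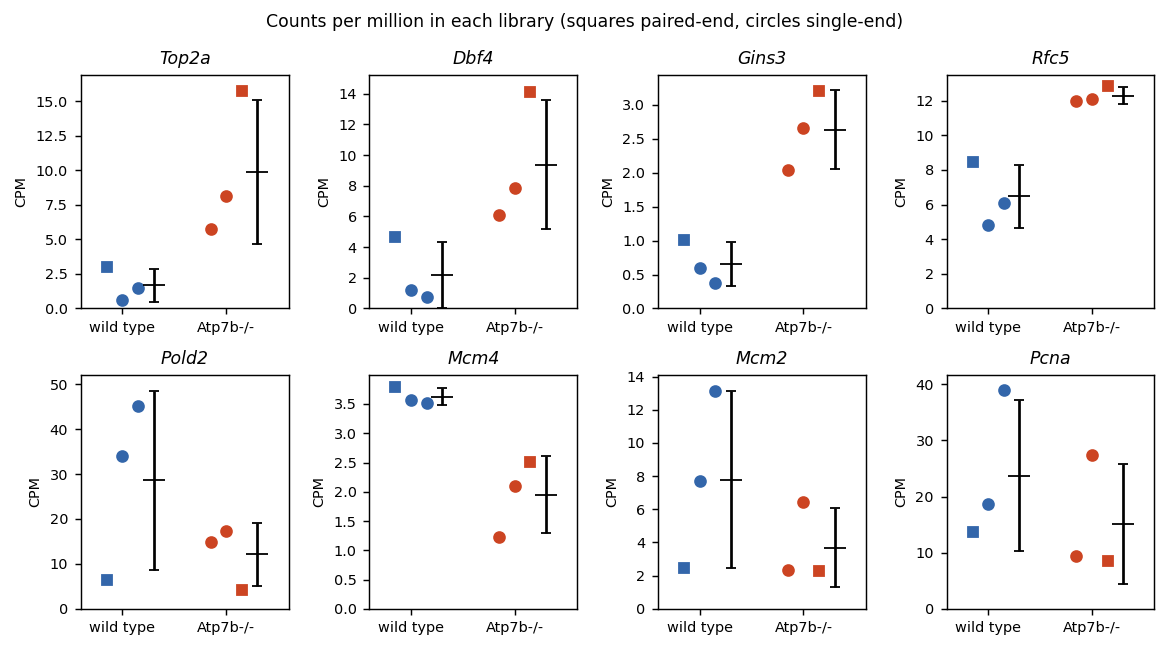
Normalised level in CPM (vertical axis) of 8 genes in each library, wild type in blue and Atp7b-/- in red, with squares for paired-end and circles for single-end libraries, and the mean of 3 with SD in black. Top2a, Dbf4, Gins3 and Rfc5 were higher in all 3 Atp7b-/- libraries and Mcm4 lower, while Pold2, Mcm2 and Pcna overlapped.

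The other genes of helicase activation split in direction. Gins3, a subunit of the GINS complex that joins Cdc45 to the MCM ring, stood at 1.01, 0.595 and 0.371 CPM in wild type and at 2.04, 2.67 and 3.20 in Atp7b-/-. The groups did not overlap, and the fitted log2 change of 1.94 (SE 0.44) gave an adjusted p of 0.0618 by edgeR. Gins3 passed the threshold with DESeq2 (adjusted p = 0.0109), without the filter on low counts (0.0158) and with total counts in place of TMM scaling (0.0380). In the other 14 of 17 alternatives it did not. Without both libraries of doubted sex label the log2 change was 1.945, with a single wild type library left in the comparison. Cdc45, which travels with the active helicase, was also higher in every Atp7b-/- library. It was read at 0.960, 1.19 and 1.48 CPM in wild type and 2.10, 2.67 and 2.17 in Atp7b-/- (log2 0.97, SE 0.41, adjusted p = 0.318).

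The remaining GINS subunits did not follow Gins3. Gins1 was lower in every Atp7b-/- library, at 2.29, 3.57 and 3.89 CPM against 1.92, 1.82 and 1.65 (log2 -0.79, SE 0.35, adjusted p = 0.354). Gins4 overlapped between genotypes (log2 -0.34), and Gins2 was too low to test, at most 1.26 CPM. The 4 subunits form a single tetramer. No test of the difference between Gins3 and the others was made.

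Mcm10, a scaffold that helps the helicase to unwind, had the highest level per kilobase of exon of all members, at a mean of 15.3 CPM per kb. It was read at 281, 49.2 and 116 CPM in wild type and at 90.8, 128 and 42.3 in Atp7b-/-, a share of 9.61% to 41.3% of the CPM of all members together. The paired-end libraries held both its highest and its lowest value. The fitted log2 change was -0.56 (SE 0.86, adjusted p = 0.835). The ratio of Atp7b-/- to wild type was -2.72 on the log2 scale in the paired-end libraries and 0.41 in the single-end ones, each after adding 0.5 CPM. Labelled sex follows genotype in opposite directions within the layouts, so a difference between layouts cannot be told apart from labelled sex. The female label of the paired-end Atp7b-/- library is itself in doubt. Ddx3y stood at 161 CPM in the paired-end wild type library and 126 in the Atp7b-/- one, and Xist at 1.005 and 0.482. The part of sex in the Mcm10 difference was not tested. The interaction test takes its spread from the single-end libraries, since each genotype has a single paired-end library. The difference between layouts was -3.15 (SE 0.73), with an adjusted p of 0.582 in the edgeR interaction test. Without the filter on low counts the adjusted p was 1.92e-07 in the same test, in a fit that called 159 genes against 2 with the filter. Mcm10 had at least 579 counts in every library, so the filter did not act on its own counts. Why the fits differed was not tested.

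Origin recognition complex genes mostly had positive fold changes, and none passed the test. Of 6 genes 5 were tested, with log2 values from -0.54 (Orc6) to 0.67 (Orc3), 4 of them positive, and a median of 0.37. The genotype ratio had the same sign in both layouts for 2 of these 5, Orc3 and Orc6. For Orc2, Orc4 and Orc5 the log2 ratio between the paired-end libraries was -0.003, -0.008 and -0.019. Orc3, a core subunit of the complex, stood at 36.6, 6.80 and 4.82 CPM in wild type and at 9.50, 11.9 and 47.7 in Atp7b-/- (log2 0.67, SE 0.23, adjusted p = 0.220). Its groups overlapped because the paired-end library of each genotype lay far above its single-end ones. Within the single-end libraries Orc3 was higher in both Atp7b-/- libraries, and between the paired-end ones it was also higher in Atp7b-/-. Orc2, Orc4 and Orc5 had adjusted p from 0.526 to 0.802. Orc1, the subunit that binds and leaves origins during the cycle, was at most 0.344 CPM in any library and was not tested.

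No licensing factor passed the test, and the values of each overlapped between genotypes. Cdc6, the loader that recruits the MCM ring, was read at 0.229, 0.0850 and 0 CPM in wild type and 0.175, 0.561 and 0.551 in Atp7b-/-, too low to test. Cdt1, its partner in loading, stood at 1.97, 9.69 and 7.79 CPM in wild type and 8.57, 8.14 and 1.93 in Atp7b-/- (log2 -0.06, SE 0.26, adjusted p = 0.949). Both paired-end libraries had the lowest Cdt1 values, near 2 CPM. Gmnn, which encodes geminin and blocks Cdt1 outside G1, had a log2 change of -0.00 (SE 0.31, adjusted p = 0.9997).

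The MCM2-7 helicase genes leaned to lower values in Atp7b-/-, 5 of 6 with a negative fold change and a median log2 of -0.44, but none passed the test. The sum over the 6 genes overlapped, 28.8 to 38.9 CPM in wild type and 20.7 to 36.6 in Atp7b-/-. Mcm4 was the member with the clearest separation, at 3.79, 3.57 and 3.52 CPM in wild type and 1.22, 2.10 and 2.51 in Atp7b-/-. All 3 Atp7b-/- libraries lay below the wild type ones (log2 -0.93, SE 0.37, adjusted p = 0.296 by edgeR).

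Mcm2, whose protein also binds histones at the fork, had a change of similar size on much more scattered values. It stood at 2.47, 7.73 and 13.2 CPM in wild type and 2.33, 6.45 and 2.27 in Atp7b-/- (log2 -0.89, SE 0.46, adjusted p = 0.432). Mcm5 stood at 2.79, 8.33 and 4.82 CPM against 2.798, 6.45 and 2.31 (log2 -0.47, SE 0.40, adjusted p = 0.650). For both genes the paired-end libraries were low and the genotypes overlapped. Mcm3 had a log2 change of -0.40, Mcm6 of -0.03 and Mcm7, the single positive subunit, of 0.35. About 12.6% of the exon bases of Mcm7 are shared with other genes, Cops6 and Ap4m1 among them.

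The polymerase genes did not move together. Polymerase alpha-primase, which starts each Okazaki fragment, had 3 of 4 genes with positive fold changes and a median log2 of 0.23. Prim2, the large primase subunit, stood at 5.26, 2.04 and 1.11 CPM in wild type and 4.49, 3.23 and 7.27 in Atp7b-/- (log2 0.92, SE 0.37, adjusted p = 0.290). Within each layout it was higher in Atp7b-/-, and across layouts the groups overlapped. Pola1, Pola2 and Prim1 had log2 changes of 0.38, 0.07 and -0.29. Of the 4 genes only Prim2 had a genotype ratio of the same sign in both layouts.

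Polymerase delta, the lagging strand polymerase, was the subcomplex of lowest median, -0.99 over its 3 tested genes. Pold2, its second subunit, stood at 6.44, 34.1 and 45.2 CPM in wild type and 14.9, 17.4 and 4.17 in Atp7b-/-. Atp7b-/- was lower within each layout, and the groups overlapped because the paired-end libraries were lowest. The fitted log2 change was -1.08 (SE 0.23) with an adjusted p of 0.0506, which just missed the threshold; with DESeq2 it was 0.00296 and without the filter on low counts 0.00164. In the other 15 of 17 alternatives Pold2 did not pass, with adjusted p of 0.0950 under total counts, 0.0842 among single-end libraries only and up to 0.225 with 1 library left out. Pold1, the catalytic subunit, was read at 1.69, 10.9 and 6.30 CPM in wild type and 2.62, 3.65 and 1.76 in Atp7b-/- (log2 -0.99, SE 0.43, adjusted p = 0.332). The log2 ratio of Atp7b-/- to wild type was 0.04 between its paired-end libraries and -1.32 between the single-end ones.

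The accessory subunit Pold3 had a log2 change of -0.18. Pold4 had no assigned count in any library, where 3 counts would be 0.507 CPM in the smallest library and 0.116 in the largest. About 24.6% of its exon bases are shared with AC109138.7 on the same strand. Whether reads of Pold4 were left unassigned was not tested. Of polymerase epsilon, the leading strand enzyme, the catalytic subunit gene Pole was at 3.06, 2.64 and 2.78 CPM in wild type and 4.96, 7.02 and 3.41 in Atp7b-/-. All 3 Atp7b-/- libraries were above the wild type ones (log2 0.77, SE 0.36, adjusted p = 0.368). Pole2 was below 1.2 CPM in every library, with a log2 change of -0.29.

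The clamp loader subunits differed in sign. Replication factor C opens the PCNA ring and sets it on DNA. Rfc5 stood at 8.46, 4.84 and 6.12 CPM in wild type and 12.0, 12.1 and 12.9 in Atp7b-/-, without overlap and with little spread among the Atp7b-/- libraries. Its log2 change was 0.95 (SE 0.25, adjusted p = 0.105), and it passed the threshold with DESeq2 (0.0311), without the filter on low counts (0.0304) and with total counts in place of TMM scaling (0.0412). In the other 14 of 17 alternatives Rfc5 did not pass, with adjusted p up to 0.317 when 1 library was left out. Rfc2 went the other way, at 14.99, 29.3 and 22.2 CPM in wild type and 21.2, 15.7 and 10.3 in Atp7b-/- (log2 -0.50, SE 0.22, adjusted p = 0.333). Rfc2 values overlapped across layouts.

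Rfc3 was higher in every Atp7b-/- library by a small margin (log2 0.40, adjusted p = 0.551), and Rfc1 and Rfc4 had log2 changes of -0.17 and -0.40. Pcna, the clamp itself and a common marker of S phase, stood at 13.7, 18.6 and 38.9 CPM in wild type and at 9.33, 27.4 and 8.58 in Atp7b-/-. These values overlapped widely (log2 -0.66, SE 0.44, adjusted p = 0.558). At the lagging strand Fen1 trims flaps and Lig1 seals nicks. Lig1 was at 2.01, 7.48 and 6.12 CPM in wild type and 3.26, 5.19 and 2.00 in Atp7b-/- (log2 -0.48, SE 0.34, adjusted p = 0.579). Fen1 had a log2 change of -0.01, on a gene model of which 84.2% of the exon bases lie within Tmem258 or Gm10143 exons.

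Replication protein A covers the exposed single strand, and none of its 3 genes passed the test. Rpa1 stood at 35.4, 26.1 and 23.0 CPM in wild type and 21.2, 23.7 and 20.5 in Atp7b-/- (log2 -0.36, SE 0.21, adjusted p = 0.495). Its groups overlapped by a single library, Atp7b-/- replicate 2. Rpa2 and Rpa3 had log2 changes of 0.57 and -0.04.

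Nucleotide supply genes also did not pass the test. Rrm1, the large subunit of ribonucleotide reductase, which is kept through the cycle, stood at 11.9, 11.2 and 10.8 CPM in wild type and 13.7, 14.7 and 21.9 in Atp7b-/-. Its groups did not overlap (log2 0.55, SE 0.22, adjusted p = 0.289). Rrm2, the S phase subunit of the same enzyme, was low and scattered, at 4.25, 2.38 and 0.185 CPM in wild type and 1.22, 1.96 and 1.58 in Atp7b-/- (log2 -0.52, SE 0.67, adjusted p = 0.785). Leaving out either paired-end library, which leaves only the single-end comparison, turned its sign.

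The enzymes of thymidylate supply overlapped between genotypes. Tyms, which makes thymidylate, stood at 8.04, 3.74 and 4.45 CPM in wild type and 6.94, 6.59 and 8.47 in Atp7b-/- (log2 0.49, SE 0.28, adjusted p = 0.478). Tk1, which salvages thymidine, stood at 15.6, 38.7 and 28.4 CPM against 33.3, 37.3 and 20.7 (log2 0.18, SE 0.20, adjusted p = 0.747). For Tk1 the paired-end library was the lowest of each genotype, and for Tyms it was the highest.

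Counted without a model, 8 of the 44 genes lay higher in all 3 Atp7b-/- libraries than in any wild type library, where 5.23% of all genes did so. These were Cdc45, Gins3, Dbf4, Pole, Rfc3, Rfc5, Rrm1 and Top2a. Only Mcm4 and Gins1 lay lower without overlap, against 3.28% of all genes. The members separated in this way came from 6 subcomplexes, and in none of those with several subunits did all of them separate.

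Layout and genotype were looked at together because many genes differed between the layouts. The paired-end libraries also came from another run, were the deepest and had the highest mitochondrial shares. Layout cannot be told apart from these. At least 2-fold higher in the paired-end library of both genotypes were Orc2, Orc3, Orc4, Orc6, Dbf4, Rpa3 and Top2a, 15.9% of tested members against 17.0% of all genes. At least 2-fold lower were Cdt1, Mcm5, Pold2, Pcna and Lig1, 11.4% against 15.7%. Both genes that rose are thus among those read more in the paired-end libraries. The genotype ratio had the same sign in both layouts for 29 of 44 members, and for 58.1% of all genes. In the interaction test 0 members and 0.0154% of all genes were called; Mcm10 was the only member with an unadjusted p under 0.05, a level that 4.57% of all genes reached.

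**Figure D3:**
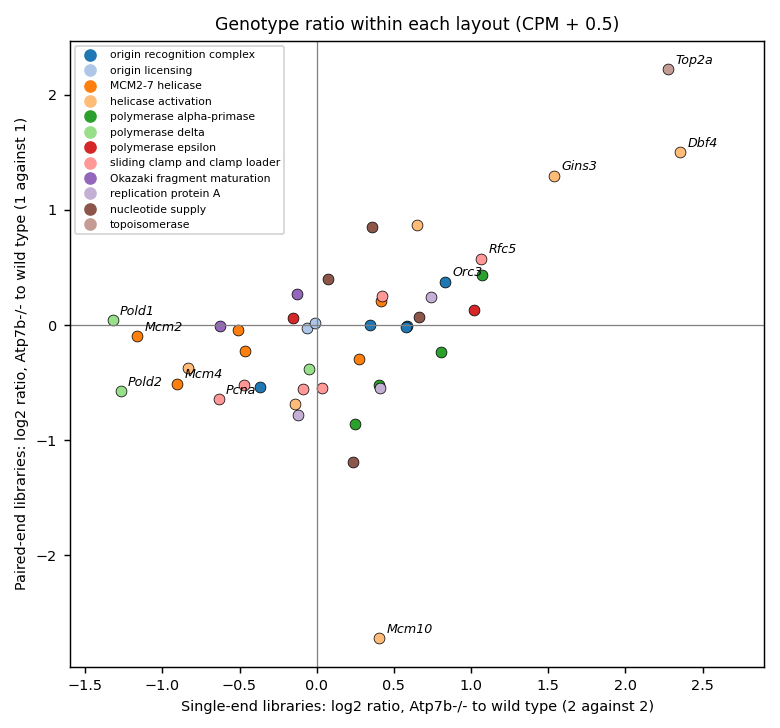
Log2 ratio of Atp7b-/- to wild type CPM after adding 0.5, in the single-end libraries (horizontal axis, 2 against 2) and in the paired-end libraries (vertical axis, 1 against 1), 1 point per tested gene coloured by subcomplex. Top2a (2.28 and 2.22), Gins3 (1.54 and 1.30) and Dbf4 lie in the upper right, and Mcm10 (0.41 and -2.72) lies alone at the bottom.

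Per kilobase of exon, Mcm10 was followed by Pold2 (10.8 CPM per kb), Gins4 (9.72), Pcna (8.09) and Gmnn (7.87), as means over the 6 libraries. At the low end with reads were Orc1 (0.0415), Cdc6 (0.0510), Cdc7 (0.0824) and Gins2 (0.151). The median over the 49 genes was 1.05 CPM per kb. Top2a went from a mean of 0.187 CPM per kb in wild type to 1.10 in Atp7b-/-, and Dbf4 from 0.252 to 1.07, so both rose from well below that median to about its level. These lengths take all annotated exons, which may be longer than the forms made in liver.

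**Figure D4:**
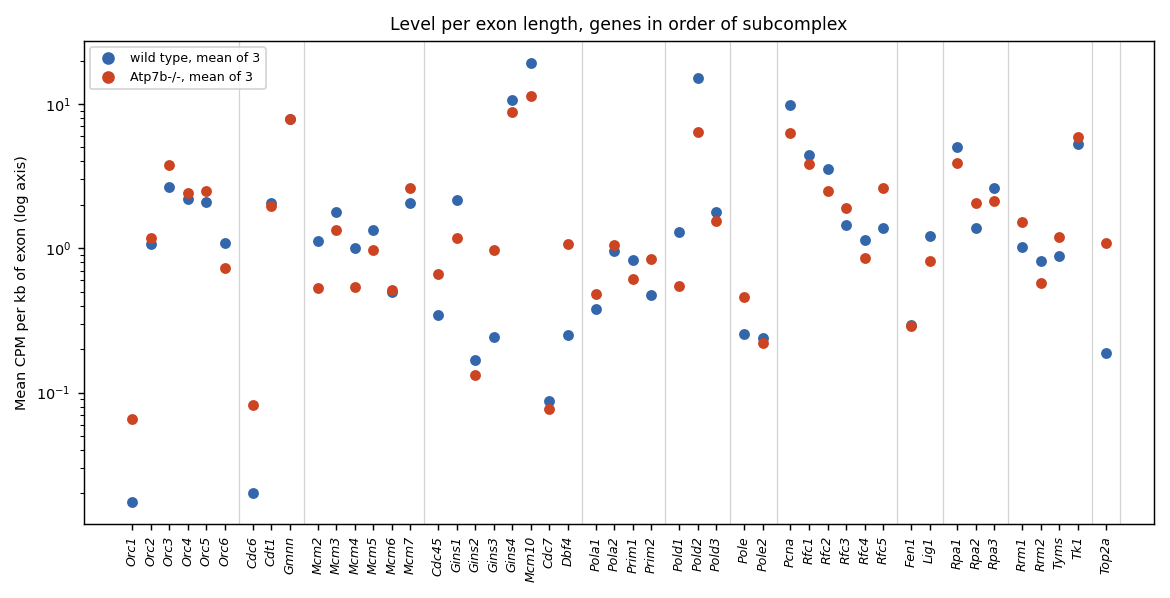
Mean level per kilobase of exon (CPM per kb, log axis) of the genes with any assigned count, ordered by subcomplex along the horizontal axis with grey lines between subcomplexes, wild type in blue and Atp7b-/- in red. Mcm10 (19.3 and 11.3) and Pold2 (15.1 and 6.42) lie at the top, and the widest gaps with higher red points are at Top2a, Dbf4, Gins3, Orc1 and Cdc6, the last 2 too low to test.

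Other genes of the replication pathway were read from the same fit, 54 in 5 lists, of which 49 were tested, 2 rose and 1 fell (6.12% called, against 2.49% of all genes); the median log2 change was 0.02. The list headed origin firing factors is broader than its name and also holds Mcm8, Mcm9, Mcmbp and Lrwd1. Among its 8 tested genes 2 rose and none fell, where 1.9% of all genes rose and 0.585% fell. The members and these lists were chosen with earlier results of these data known. Their called shares are therefore not independent of these data. Mcm8, a helicase related to the MCM ring that acts in recombination, stood at 2.79, 0.595 and 0.371 CPM in wild type and 4.90, 5.33 and 12.2 in Atp7b-/-, without overlap (log2 2.71, SE 0.38, adjusted p = 0.00703). Mtbp, which with Ticrr brings the helicase activators to origins, stood at 2.56, 0.680 and 0.371 CPM against 5.31, 3.23 and 8.82 (log2 2.38, SE 0.43, adjusted p = 0.0215). Recql4, a helicase needed for firing, had a log2 change of 1.03 (SE 0.40, adjusted p = 0.282). The Mtbp call was lost without wild type replicate 1 or 2 or Atp7b-/- replicate 1 or 3, with adjusted p up to 0.0875, and among single-end libraries only (0.0781). Leaving out either paired-end library makes that same single-end comparison. Without both libraries of doubted sex label the log2 change was 3.08 for Mcm8 and 2.67 for Mtbp, with a single wild type library left in the comparison.

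Cdk2, the cyclin-dependent kinase of S phase, fell. It stood at 16.4, 9.94 and 10.01 CPM in wild type and 4.26, 3.65 and 4.24 in Atp7b-/-, without overlap (log2 -1.55, SE 0.27, adjusted p = 0.0169). The call was lost without wild type replicate 1 or Atp7b-/- replicate 2 or 3, with adjusted p up to 0.157. It was also lost among single-end libraries only (adjusted p = 0.137), on a log2 change of -1.32. Leaving out either paired-end library makes that same single-end comparison. Without both libraries of doubted sex label the log2 change was -1.31, with a single wild type library left in the comparison. It was the single gene called of 9 in the list of S phase kinases and Cdt1 turnover. In that list Dtl, which directs Cdt1 destruction, had a log2 change of 1.35 (adjusted p = 0.193) and Cul4a, its ligase scaffold, of -0.37 (0.395).

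None of the other 3 lists had a called gene. Of the replisome and fork protection list, 12 of 15 genes were tested with a median log2 of 0.01; the smallest p values belonged to the fork remodeller Zranb3 (log2 1.12, adjusted p = 0.115), Atad5, which unloads PCNA (-1.08, 0.377), and Pole3 (0.32, 0.517). Of 9 primer removal and topology genes, Xrcc1, a scaffold of single-strand break repair, had a log2 change of 0.98 (adjusted p = 0.0583), Rnaseh2b of 1.04 (0.120) and Lig3 of 0.39 (0.367). Of 11 tested genes of nucleotide supply outside the members, Samhd1, which degrades deoxynucleotides, had a log2 change of 0.66 (adjusted p = 0.220), Nme1 of 0.48 (0.450) and Dtymk of -0.26 (0.634).

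Promoter windows were at hand for 41 of the 49 genes. The E2F core, TTTNNCGC or GCGNNAAA, occurred in 16 of 41 members (39.0%) and in 5.93% of 27025 genes with windows of the same length. Members with it include the licensing genes Cdc6, Cdt1 and Orc1 and the ring genes Mcm3, Mcm5, Mcm6 and Mcm7. The CCAAT box occurred in 25 members (61.0%) and in 41.1% of all genes. The CHR core occurred in 8 members (19.5%) and in 20.2% of all genes, a share at the background. Member windows were also richer in G+C, at a median of 60.0% against 52.8%.

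The fold changes were then set beside the motifs. The 14 tested members with an E2F core had a median log2 change of -0.04, with none called. The CHR core occurred in Cdc45, Cdc7, Dbf4, Fen1, Gins3, Mcm2, Pold2 and Top2a. Of these 7 were tested, with a median log2 change of 0.97 and a range from -1.08 (Pold2) to 2.65 (Top2a), and both genes that rose are among them; the 30 tested members without it had a median of -0.05. In the printed windows CHR cores lie at -179 and -23 bases from the start in Top2a, at -28 in Gins3 and at -3 in Dbf4. In Pold2 they lie only in the window of another annotated start. Fold changes of all genes with a CHR core were not set beside these, so a link between the core and the rise was not tested. A match of 6 letters is a description of the window and not a binding site.

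**Figure D5:**
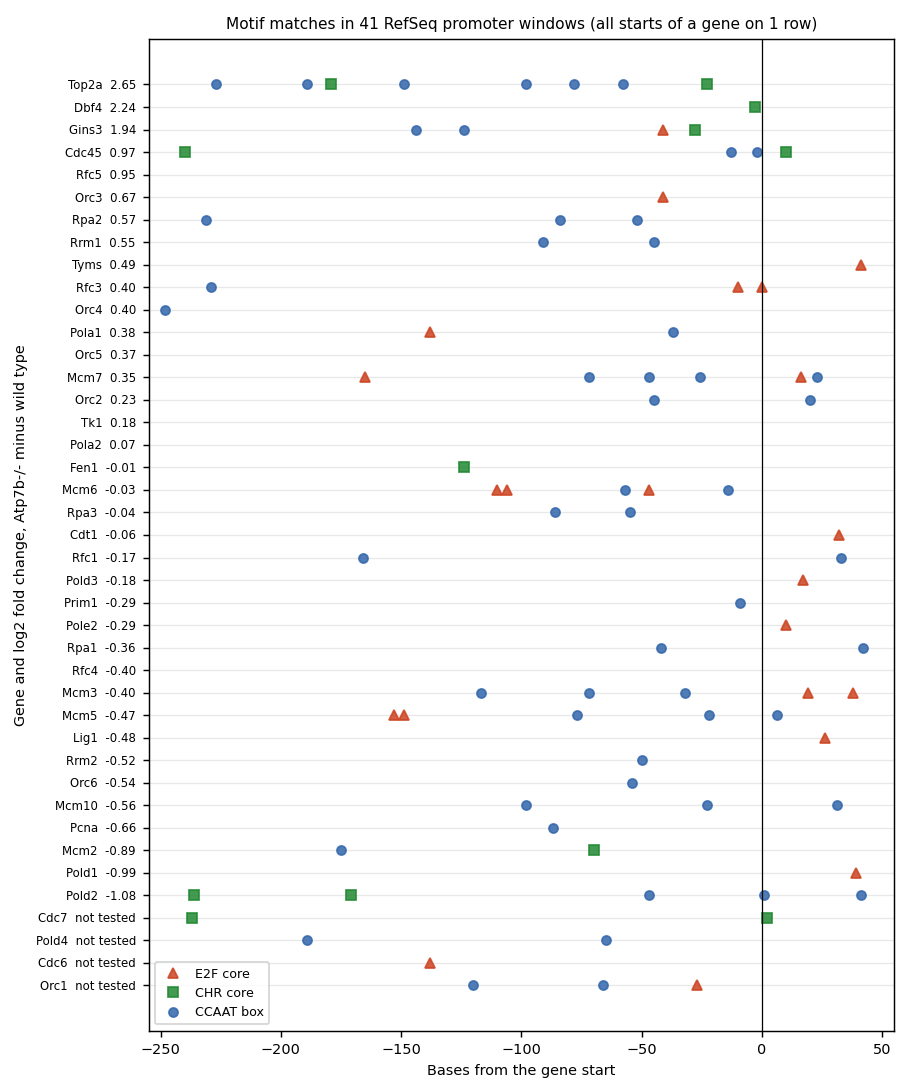
Position of motif matches (horizontal axis, bases from the annotated gene start, negative before it) in the windows of 41 genes, 1 row per gene ordered by log2 fold change, with triangles for the E2F core, squares for the CHR core and circles for the CCAAT box. The top 4 rows, Top2a, Dbf4, Gins3 and Cdc45, all hold a CHR core, as do Fen1, Mcm2, Pold2 and the untested Cdc7 further down. E2F cores are scattered from the third row to the bottom.

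Counts of 19 members are less certain because their exons overlap another annotated gene and whether the counting used strand is not stated in the sources at hand. The share of exon bases involved was largest in Fen1 (84.2%), Gins2 (67.3%, Gse1), Orc2 (29.8%, Nif3l1) and Pold4 (24.6%, AC109138.7 on the same strand). For Top2a it was 1.35%, and Dbf4 and Gins3 had none.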

How the data were processed

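Liver RNA of 3 wild type and 3 Atp7b-/- libraries was analysed from the authors' deposited table of raw read counts per Ensembl gene. GRCm38, the aligner STAR 2.4, the read counter featureCounts and edgeR 3.8 are named, without settings, per the submitters' processing notes; the strand and read pair options of the counting were not given in the sources used here. Symbols, coordinates and exon lengths came from GENCODE M21, and promoter windows from RefSeq, where 8 members had none (Gmnn, Gins1, Gins2, Gins4, Rfc2, Pole, Prim2 and Mcm4). Genes passing the edgeR expression filter (minimum count 10) were scaled by TMM (factors 0.912 to 1.12) and tested with edgeR 4.0.16 by the robust quasi-likelihood F test with layout and genotype as terms (R 4.3.3), and p-values were adjusted over 12988 genes by the Benjamini-Hochberg method. CPM values use TMM library sizes. The script was tested on simulated counts. Alternatives were other scalings, filters and models, DESeq2 1.42.0, limma-voom (limma 3.58.1), labelled sex, single-end libraries alone, and each library left out. Leaving out both libraries with sex-linked counts against their labels was chosen after seeing the data. The members and gene lists were chosen with earlier results of these data known. Full values are given for members called, with an unadjusted p under 0.05, with the smallest p of their subcomplex, or listed for their roles, and for called pathway genes; the 3 smallest p of each pathway list are also named. A single cell type marker is not reported here by itself.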

Additional observations from a re-analysis of the deposited data

How the results depend on the processing

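With layout dropped from the model, or replaced by the labelled sex, 0 genes, 0 members and 0 pathway genes were called with edgeR (545 and 381 genes had an unadjusted p under 0.05), against 323, 2 and 3. The single-end libraries alone gave 126, 1 (Dbf4) and 1 (Mcm8), no filter on low counts 1116, 5 and 6, and DESeq2 770, 5 and 6; the added members were Gins3 and Rfc5 as higher and Pold2 as lower. Total counts in place of TMM gave 4 members (Dbf4, Gins3, Rfc5 and Top2a) and 384 genes higher and 44 lower against 247 and 76; they moved the median of all genes to 0.19 and that of the members to 0.18. Leaving out 1 library at a time gave 119 to 323 genes, 0 to 2 members, 1 to 3 pathway genes and member medians from -0.19 to 0.13. The member median was 0.12 in the single-end libraries alone. It was 0.15 without both libraries whose sex-linked counts go against their labels, where a single wild type library is left in the comparison. The interaction test without the filter called 159 genes and 1 member (Mcm10). Signs of the log2 change turned for Cdt1 with total counts (0.13) and for Tk1 without both doubted libraries (-0.132). For Rrm2 the value was 0.0696 among single-end libraries only. With 1 library left out in turn, Cdt1 ran from -0.139 to 0.0537 and Rrm2 from -1.01 to 0.0886, positive without either paired-end library. Leaving out a paired-end library with layout as a term repeats the comparison of single-end libraries, so those fits are not separate checks. Where a call was lost the cause was not tested, beyond the fewer samples of some settings. Of 373 alternative values of 22 named members, 351 kept direction and side of the threshold. Most of these members were not called in the main fit, and for them staying uncalled counts as kept. Of the called genes, Dbf4 lost its call in 3 and Top2a in 5 of 17 alternatives. No paired analysis was possible because the replicate numbers follow the order of deposit and pair no libraries. Top2a rests on 7 and 8 reads in the single-end wild type libraries; with a minimum count of 30, 38 members were tested and Dbf4 and Top2a were called.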
